A study of Macaca mulatta with 45 samples.

Results

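The hippocampus was compared with the prefrontal cortex in rhesus macaques that had received fractionated whole-brain irradiation (fWBI), 40 Gy to the brain in 8 fractions of 5 Gy, 12 months before necropsy. The 10 libraries compared, of 45 in the series, are the hippocampus and the dorsolateral prefrontal cortex (Brodmann area 46) of 5 animals, so that each animal gives 1 pair. They were chosen by their labels alone, and the difference was measured across all genes that passed a filter on low counts. The series holds 15 animals in 3 groups of 5, sampled in these regions and in white matter. The other 2 groups serve here as a background: controls, which received 10 Gy to the thorax only with an estimated brain dose of at most 0.1 Gy, and animals given 1 total body dose (TBI) of 6.75 to 8.05 Gy some 6 to 9 years before necropsy. The controls are therefore irradiated animals too, outside the brain, and dose, schedule and time since exposure all differ between the fWBI and TBI groups. All brains were perfused with saline and frozen as coronal slabs. Neither age, sex nor the exact dissection is stated for any animal.

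The hippocampus is an old, simply layered cortex. Granule cells of the dentate gyrus receive input from the entorhinal cortex and project to pyramidal cells of the CA fields, and in the dentate gyrus new granule neurons can form from progenitors that are known to be sensitive to radiation. The prefrontal cortex is a layered neocortex, in which upper layers connect cortical areas and deep layers project out of the cortex; area 46 has a well developed granular layer. The hippocampus also borders the lateral ventricle, with its choroid plexus and ciliated ependyma, and carries white matter tracts on its surface.

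Total RNA was sequenced after removal of ribosomal RNA, and the deposited values are raw read counts per gene. Totals were 8256801 to 12541507 in hippocampus and 9270326 to 10795679 in prefrontal cortex. Levels are CPM, a gene's counts relative to the library's total after scaling by the trimmed mean of M-values, in the order of animals 1 to 5. Differences are log2 fold changes, hippocampus over prefrontal cortex, ± standard error (SE) from edgeR's quasi-likelihood test with animal as a block (n = 5 pairs), with Benjamini-Hochberg adjusted p-values over all genes and a threshold of 0.05. A gene is written as higher or lower in hippocampus only where it passed that threshold. In bulk tissue, fewer cells of a type and less RNA per cell cannot be told apart.

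The hippocampus library of fWBI animal 5 stood apart from the other 4. It held 15 named genes at more than 4 times the level of every other fWBI hippocampus library, against 0 or 1 in each of the others. SLC17A6, a vesicular glutamate transporter typical of subcortical excitatory neurons, was at 304 CPM in it and at 33.6 to 51.3 in the others. PVALB, a calcium-binding protein of fast-spiking neurons, was at 59.6 CPM there and at 1.61 to 7.01 in the others. The choroid plexus list, given below, summed to 1511 CPM in that library and to at most 693 CPM in the others. Of 15 genes typical of thalamic neurons, a list drawn up after these values were seen, 11 were tested and 8 were highest in this library, 3 of them (SLC17A6, ZIC1 and NTNG1) by more than 2-fold. The list holds SLC17A6 and ZIC1, which had already been seen to stand apart, so its count partly restates their values. Without these 2 genes 6 of 9 were highest in this library, and the 9 summed to 221 CPM in it, to 111 to 136 CPM in the other 4 hippocampus libraries and to 173 to 255 CPM in prefrontal cortex. Of these 6, LEF1 and PRKCD were at only 1.04 and 1.07 times the next library, and 1 gene, NTNG1, exceeded 2-fold. The share of all genes tested that were highest in this library was not counted, so these counts have no background. The regional difference of SLC17A6 was 0.12 ± 0.43 with all animals, not called, and -0.42 without animal 5, called as lower (adjusted p = 0.0117). What else the tissue of this library held was not tested, so the main counts are also given without animal 5.

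**Figure D1:**
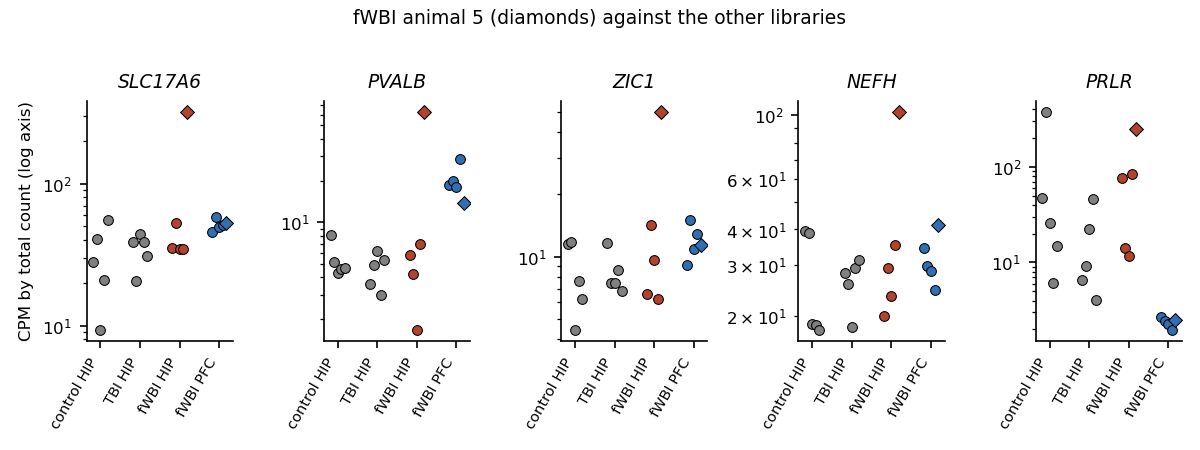
Level of 5 genes in CPM scaled by total count (logarithmic axis) in hippocampus (HIP) of control, TBI and fWBI animals and in prefrontal cortex (PFC) of fWBI animals, with 1 point per library. The diamond of fWBI animal 5 lies above all other hippocampus libraries in SLC17A6, PVALB, ZIC1 and NEFH, whereas PRLR was highest, at 373 CPM, in 1 control hippocampus.

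The 2 regions differed in 4149 of 15258 genes tested, which is 27.2%. Of these, 2109 were higher (13.8%) and 2040 were lower (13.4%) in hippocampus, and 553 and 608 of them by more than 1 on the log2 scale. Counts over the gene lists below are to be read against these 13.8% and 13.4%. The median over all genes tested was -0.0019. In 1239 genes (8.12%) all 5 hippocampus libraries lay above all 5 prefrontal cortex libraries, and in 1344 genes (8.81%) all lay below. The difference was positive in 5 of 5 animals in 18.5% of genes and negative in 5 of 5 in 17.9%. Without animal 5 the test called 4736 genes, 2367 higher and 2369 lower, of which 3829 were among the 4149. Without animal 2 it called 2638.

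The gene with the largest difference higher in hippocampus was MFAP5. MFAP5 was at 11.4, 19.7, 43.7, 3.55 and 12.0 CPM in hippocampus of animals 1 to 5 and at 0.188, 0, 0.0922, 0 and 0 CPM in prefrontal cortex. MFAP5 codes for a microfibril protein of the extracellular matrix; it had 851 counts in hippocampus and 3 in prefrontal cortex, a ratio of 287 (95% exact interval 98.0 to 1396, counting error only). NTS was at 19.9, 47.2, 5.75, 12.0 and 33.1 CPM in hippocampus of animals 1 to 5 and at 0.848, 0.187, 0.553, 0 and 0.422 CPM in prefrontal cortex. NTS, the precursor of the neuropeptide neurotensin, varied 8-fold among hippocampus libraries, and the lowest of them still lay above every prefrontal cortex library (difference 5.70 ± 0.47, adjusted p = 7.88e-05). AQP3 was at 42.6, 40.3, 41.3, 38.8 and 24.7 CPM in hippocampus of animals 1 to 5 and at 1.13, 1.21, 0.277, 0.926 and 0.422 CPM in prefrontal cortex. AQP3 forms a channel for water and glycerol (5.56 ± 0.22, adjusted p = 7.32e-06), and animal 5 had the lowest hippocampus value. NPFFR2, a receptor of the neuropeptide FF family, was at 11.1 to 14.9 CPM in hippocampus and 0.188 to 0.422 CPM in prefrontal cortex (5.32 ± 0.19, adjusted p = 5.98e-06).

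The remaining 11 of the 15 largest higher genes included the growth factor neurotrophin 3 (NTF3, 5.09 ± 0.34), the CA1 gene FIBCD1 (4.61 ± 0.28), the lysophosphatidic acid receptor LPAR3 (4.17 ± 0.34), the nicotinic receptor subunit CHRNA3 (3.92 ± 0.44) and PWWP3B (3.73 ± 0.17), which was at 5.16 to 8.50 CPM in prefrontal cortex and at 67.6 to 117 CPM in hippocampus. The prolactin receptor PRLR (4.58 ± 0.57), known from the choroid plexus, and the cilia genes ARMC3 (4.16 ± 0.70) and CFAP54 (3.52 ± 0.26) were among them, with BEST3 (4.75 ± 0.44) and FAM216B (4.13 ± 0.40). In 14 of the 15 genes the 2 regions did not overlap, which the choice of the largest differences with the same sign in 5 animals makes likely. Over all genes tested hippocampus lay wholly above prefrontal cortex in 8.12%. ARMC3 ranged from 0.945 to 21.1 CPM in hippocampus, highest in animal 5, and its difference was 3.26 without that animal and 5.11 without animal 3. The difference of BEST3 was 5.33 without animal 3, and that of CHRNA3 4.55 without animal 1.

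On the other side, the gene with the largest difference was SPINK5. SPINK5 was at 0.0880, 0, 0, 0.161 and 0 CPM in hippocampus of animals 1 to 5 and at 7.07, 6.54, 12.4, 13.7 and 10.8 CPM in prefrontal cortex. SPINK5, a serine protease inhibitor, had 3 counts in hippocampus and 514 in prefrontal cortex, a ratio of 169 (95% exact interval 57.6 to 823, counting error only). FREM3 was at 0.264, 0.591, 0.230, 1.45 and 0.185 CPM in hippocampus of animals 1 to 5 and at 49.0, 40.3, 87.1, 39.5 and 74.7 CPM in prefrontal cortex. FREM3 codes for an extracellular matrix protein of upper-layer pyramidal neurons, and it was lower in hippocampus in every pair (-6.58 ± 0.41, adjusted p = 2.3e-05; -7.59 without animal 4). TESPA1 was at 0.880, 2.60, 0.345, 5.24 and 7.87 CPM in hippocampus of animals 1 to 5 and at 83.5, 81.1, 91.6, 97.9 and 91.5 CPM in prefrontal cortex. TESPA1 is known from T cell receptor signalling in the thymus (-4.86 ± 0.44, adjusted p = 0.000132); it had little spread in prefrontal cortex and a wide one in hippocampus. THEMIS, which also takes its name from the thymus, was at 2.73 to 6.07 CPM in prefrontal cortex and 0 to 0.345 CPM in hippocampus (-4.65 ± 0.45, adjusted p = 0.00017). Of 12 T cell markers listed 8 had a matching ID and 3 of these passed the filter; only CD4, which microglia also express, was called, higher in hippocampus (0.68 ± 0.10).

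The other genes among the 15 largest lower ones included the melanin-concentrating hormone receptor MCHR2 (-5.06 ± 0.51), the matrix phosphoglycoprotein MEPE (-5.11 ± 0.38), the potassium channel subunit KCNS1 (-4.65 ± 0.25), desmoglein 3 (DSG3, -4.36 ± 0.35), cyclooxygenase 2 (PTGS2, -4.02 ± 0.18), FSTL4 (-3.91 ± 0.24), the kinase NEK2 (-3.76 ± 0.19), DACT2 (-3.62 ± 0.53), CCDC83 (-3.59 ± 0.24) and the nicotinic subunit CHRNA6 (-3.30 ± 0.33). Without animal 5 the difference of MCHR2 was -6.48 and that of DACT2 -4.53, and without animal 4 that of MEPE was -5.76. All 15 lay below the prefrontal cortex range in every hippocampus library, which their choice by size and sign makes likely. Over all genes tested this held for 8.81%. PTGS2, which makes prostaglandins in cortical excitatory neurons, was at 20.5 to 33.9 CPM in prefrontal cortex and 0.945 to 2.74 CPM in hippocampus. The 2 nicotinic subunits went in opposite directions: CHRNA3 was at 1.32 to 4.37 CPM in hippocampus against 0.0922 to 0.377 CPM, and CHRNA6 at 0.176 to 0.645 against 3.09 to 4.98 CPM.

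**Figure D2:**
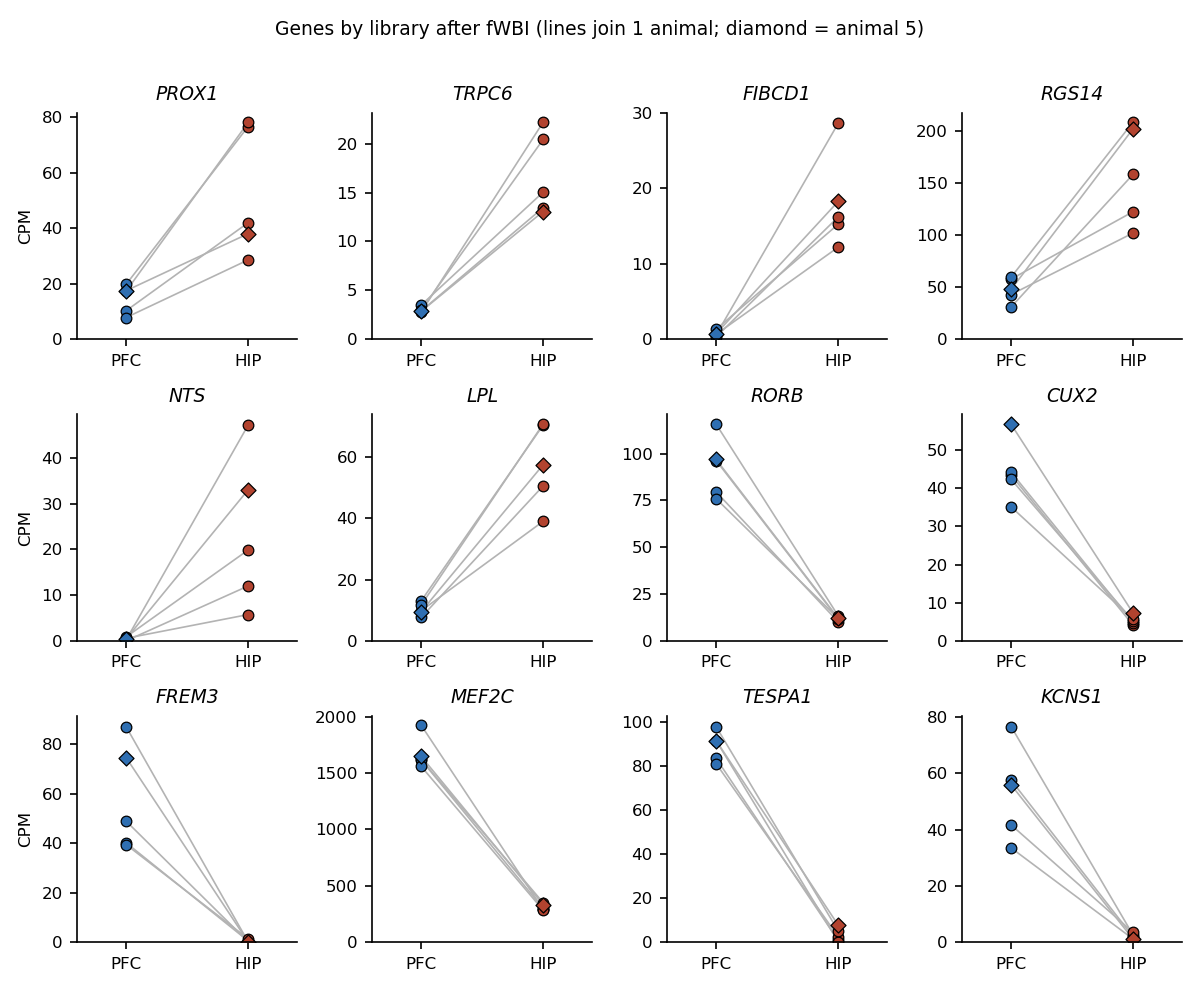
Level in CPM of 12 genes in prefrontal cortex (PFC, blue) and hippocampus (HIP, red) after fWBI; each line joins the 2 libraries of 1 animal, and diamonds mark animal 5. In every panel the 2 regions are apart, with hippocampus above in PROX1, TRPC6, FIBCD1, RGS14, NTS and LPL and below in RORB, CUX2, FREM3, MEF2C, TESPA1 and KCNS1. The 12 genes were picked from those named in the text, so their separation partly follows from that choice.

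Genes of dentate granule cells, the principal neurons of the dentate gyrus, were higher in hippocampus in 9 of the 10 tested, and none was lower; the median was 1.09, against -0.0019 over all genes. PROX1 was at 76.7, 42.0, 78.2, 28.6 and 38.1 CPM in hippocampus of animals 1 to 5 and at 19.8, 10.3, 17.3, 7.82 and 17.5 CPM in prefrontal cortex. PROX1, the transcription factor that specifies granule cells, was higher in each pair (1.83 ± 0.15, adjusted p = 8.63e-05). The highest prefrontal cortex value, 19.8 CPM, lay below the lowest hippocampus value, 28.6 CPM. The cation channel TRPC6 (2.46 ± 0.17, adjusted p = 3.22e-05) and the exchange factor DOCK10 (1.72 ± 0.08, adjusted p = 7.71e-06) were higher, as were the secreted synaptic proteins C1QL2 (1.19 ± 0.15) and C1QL3 (1.08 ± 0.13), the guidance receptor SEMA5A (1.10 ± 0.11) and PLEKHA2 (0.95 ± 0.09). STXBP6 was the member not called (-0.03 ± 0.13). Animal 5 had the smallest median of the 5 pairs, 0.68 against 1.12 to 1.33. Without it 9 of 10 were again higher, with a median of 1.22.

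Genes of the CA field pyramidal cells were divided: of 11 tested, 4 were higher and 6 lower (median -0.37). FIBCD1 was at 28.6, 15.2, 12.2, 16.2 and 18.3 CPM in hippocampus of animals 1 to 5 and at 0.565, 1.31, 0.645, 0.309 and 0.738 CPM in prefrontal cortex. FIBCD1, a receptor that binds acetylated sugars and marks CA1, was near 0 throughout prefrontal cortex (4.61 ± 0.28, adjusted p = 2.21e-05). RGS14 was at 158, 122, 102, 208 and 202 CPM in hippocampus of animals 1 to 5 and at 30.9, 57.6, 42.9, 59.6 and 47.8 CPM in prefrontal cortex. RGS14, a regulator of G protein signalling that is enriched in CA2, was higher in every pair (1.71 ± 0.18, adjusted p = 0.000269). The kainate receptor subunit GRIK4, a CA3 gene (1.06 ± 0.16), and the scaffold HOMER3 (1.75 ± 0.24) were the other 2. MPPED1 (-1.31 ± 0.16), the adhesion gene NECTIN3 (-0.58 ± 0.09), WFS1 (-0.57 ± 0.13), AMIGO2 (-1.76 ± 0.42), FNDC1 (-0.87 ± 0.21) and TYRO3 (-0.37 ± 0.08) were lower. AMIGO2 was one of the 15 genes over 4 times higher in the hippocampus library of animal 5, and its difference was -2.39 without that animal. The number lower was 3 without animal 3.

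Of 12 transcription factors known from the hippocampus, 4 were higher, 2 lower and 6 not called (median 0.05). ZBTB20, which sets hippocampal identity during development, was at 116, 95.1, 144, 94.0 and 86.9 CPM in hippocampus and 46.9, 30.8, 37.4, 28.4 and 41.1 CPM in prefrontal cortex (1.54 ± 0.13, adjusted p = 8.91e-05). NEUROD1, a factor of granule neuron differentiation (1.31 ± 0.17), NEUROD6 (0.70 ± 0.14) and the mineralocorticoid receptor NR3C2 (0.50 ± 0.11) were the other higher members. MEIS2 (-1.57 ± 0.21) and FOXP2 (-1.98 ± 0.30) were lower; MEIS2 was at 31.2 and 32.3 CPM in hippocampus of animals 4 and 5 and at 13.3 to 19.5 CPM in the others.

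Upper-layer cortical genes were mostly lower in hippocampus, 9 of 13 tested, with 3 higher (median -0.72). RORB was at 13.4, 10.2, 11.7, 12.0 and 12.0 CPM in hippocampus of animals 1 to 5 and at 116, 79.6, 96.4, 75.9 and 96.9 CPM in prefrontal cortex. RORB, a nuclear receptor of layer 4, had a narrow range in hippocampus (-2.96 ± 0.10, adjusted p = 5.98e-06). CUX2 was at 4.05, 4.72, 5.18, 5.64 and 7.23 CPM in hippocampus of animals 1 to 5 and at 43.4, 44.2, 42.3, 35.1 and 56.7 CPM in prefrontal cortex. CUX2, a homeobox factor of layers 2 to 4, differed by about as much (-3.04 ± 0.13, adjusted p = 7.32e-06). GLRA3 (-1.26 ± 0.09) and LTK (-2.76 ± 0.28) were lower. The 3 higher members were LAMP5 (1.02 ± 0.09), CALB1 (1.09 ± 0.16) and CARTPT (2.11 ± 0.28); CALB1 codes for calbindin, which dentate granule cells also make, and stands in the dentate list too.

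Deep-layer genes split evenly, with 6 higher and 5 lower of 14 tested (median 0.05). FEZF2 (1.33 ± 0.10) and BCL11B (1.37 ± 0.13), factors of corticofugal neurons, NTNG2 (1.47 ± 0.15), SEMA3E (1.85 ± 0.20), the serotonin receptor HTR2C (2.25 ± 0.38) and SYNPR (0.96 ± 0.13) were higher. Which cells of the hippocampus held HTR2C was not tested. TBR1, a factor of layer 6 (-1.67 ± 0.16), was lower with THEMIS, FOXP2, RXFP1 (-1.42 ± 0.26) and NXPH3 (-0.56 ± 0.12). TBR1 differed most in animal 5, by -2.42 log2 CPM against -1.53 to -1.28 in the others.

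All 10 tested transcription factors of the neocortex differed, 7 lower and 3 higher (median -0.62). MEF2C was at 300.2, 351, 292, 285 and 335 CPM in hippocampus of animals 1 to 5 and at 1617, 1619.8, 1923, 1559 and 1647 CPM in prefrontal cortex. MEF2C, an activity-regulated factor of excitatory neurons, had a range in prefrontal cortex that began more than 4 times above the highest hippocampus library (-2.42 ± 0.10, adjusted p = 7.32e-06). CUX1, CUX2, RORB, TBR1, SOX5 (-0.45 ± 0.12) and POU3F2 (-0.68 ± 0.15) were lower too. FEZF2, NEUROD2 (0.54 ± 0.09) and ZNF804A (0.72 ± 0.11) were higher.

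Of 13 genes shared by most neurons 6 were lower and none was higher (median -0.14), among them the RNA-binding proteins ELAVL4 (-1.06 ± 0.08) and RBFOX3 (-1.37 ± 0.15) and the glycolytic enzyme ENO2 (-0.74 ± 0.09). RBFOX3 was the member with the widest departure of a pair: -2.06 log2 CPM in animal 5 and -1.22 to -1.14 in the others. Of 10 genes of excitatory neurons 5 were lower and 1 higher, led by the potassium channel subunit KCNV1 (-2.27 ± 0.12). Without animal 5 the counts were 6 lower and 3 higher. The summed level of the pan-neuronal list was 11050.5 to 12974 CPM in hippocampus and 13439 to 13794 CPM in prefrontal cortex.

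Inhibitory interneuron genes were lower in 9 of 15 and higher in 1 (median -0.64). GAD1 was at 213, 242, 240.4, 229 and 169 CPM in hippocampus of animals 1 to 5 and at 402, 418, 479, 397 and 409 CPM in prefrontal cortex. GAD1 makes the transmitter GABA, and its 2 ranges were apart (-0.95 ± 0.09, adjusted p = 0.000172). The peptides VIP (-1.73 ± 0.09), TAC3 (-1.95 ± 0.18), SST (-0.64 ± 0.13) and CCK (-0.45 ± 0.14), which mark interneuron classes, the transporter SLC32A1 (-0.78 ± 0.11), GAD2 (-0.63 ± 0.14), the developmental factor LHX6 (-1.09 ± 0.19) and CRHBP (-0.91 ± 0.16) were lower. NPY, another interneuron peptide, was higher (0.65 ± 0.15). NPY was not called without animal 1. PVALB was not called with all 5 pairs (-1.37 ± 0.70, adjusted p = 0.183); without animal 5 its difference was -2.24 and 11 of the 15 genes were lower.

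Myelin genes were higher in hippocampus in 8 of 8 tested (median 1.35). UGT8 was at 69.4, 32.1, 39.3, 57.0 and 73.7 CPM in hippocampus of animals 1 to 5 and at 32.1, 14.9, 20.4, 16.9 and 17.3 CPM in prefrontal cortex. UGT8, which makes the galactolipids of myelin, differed most in animal 5, whose hippocampus held the highest value (1.40 ± 0.17, adjusted p = 0.000566, and 1.23 without it). MOG (1.35 ± 0.16), a surface protein of myelin, was higher with MBP (1.40 ± 0.18), MOBP (1.36 ± 0.18), CNP (0.94 ± 0.14), MAL (1.27 ± 0.24) and MYRF (0.61 ± 0.13). Hippocampus lay wholly above prefrontal cortex in 2 of the 8 genes, against 8.12% of all genes tested. The summed level was 1508 to 4177 CPM in hippocampus and 701 to 1569 CPM in prefrontal cortex. Genes of oligodendrocyte precursors were higher in 6 of 10 and lower in 1, PDGFRA (-0.28 ± 0.09). VCAN, a proteoglycan of precursors (1.44 ± 0.12, adjusted p = 9.52e-05), the factor MYT1 (1.01 ± 0.14) and BCAS1, a gene of cells on the way to myelination (1.24 ± 0.20), were among the 6. None was lower when any 1 of animals 1 to 4 was left out. Without animal 5 all 8 myelin genes were still called, with a median of 1.17. How much white matter each piece held is not stated, and its part in these differences was not tested.

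Of 12 astrocyte genes 4 were higher and none lower (median 0.09). GFAP was at 1265, 1735, 1345, 1170.0 and 1943 CPM in hippocampus of animals 1 to 5 and at 615, 788, 515, 574 and 725 CPM in prefrontal cortex. GFAP, the intermediate filament of astrocytes, was more than doubled (1.20 ± 0.09, adjusted p = 6.31e-05), with the water channel AQP4 (0.78 ± 0.08), the gap junction gene GJA1 (0.44 ± 0.08) and ALDH1L1 (0.42 ± 0.10) behind it. Of 8 genes that reactive astrocytes induce 5 were higher, GFAP again, the protease inhibitor SERPINA3 (1.44 ± 0.16), the adhesion receptor CD44 (1.74 ± 0.25), CP (2.29 ± 0.61) and OSMR (0.39 ± 0.11). That number was 3 without animal 1 and without animal 4. CP, ceruloplasmin, is also made by choroid plexus, and its level in hippocampus was 125 CPM in animal 5 and at most 26.7 CPM in the others; its difference was 1.60 without animal 5.

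Of 6 genes of homeostatic microglia 3 were higher: SELPLG, a selectin ligand (1.63 ± 0.16, adjusted p = 0.000182), the growth factor receptor CSF1R (0.61 ± 0.09) and GPR34 (0.53 ± 0.10). P2RY12 and SALL1 were among those not called. Of 13 genes of activated or lipid-laden microglia and macrophages 7 were higher and 1, CTSB (-0.35 ± 0.08), lower; the 7 were 3 without animal 1 and 3 without animal 2, and none was lower without animal 2 or 3. LPL was at 39.0, 70.4, 70.7, 50.5 and 57.4 CPM in hippocampus of animals 1 to 5 and at 9.80, 13.0, 11.6, 7.61 and 9.49 CPM in prefrontal cortex. LPL, lipoprotein lipase, had the largest difference (2.47 ± 0.12, adjusted p = 8.24e-06) and is known to be made by hippocampal neurons as well. APOE (0.56 ± 0.09), MSR1 (0.73 ± 0.15), SPP1 (0.81 ± 0.22), TYROBP (0.80 ± 0.25), CD68 (0.51 ± 0.14) and CLEC7A (0.56 ± 0.14) completed the 7. Of 8 genes of perivascular macrophages and monocytes 5 were higher, VCAN, LYZ (0.78 ± 0.16), CD163 (0.40 ± 0.11), MRC1 (0.39 ± 0.12) and STAB1 (0.27 ± 0.07); 2 were called without animal 1 and 2 without animal 3, and CD163 was lost in both. TYROBP and MRC1 were not called without animal 5 (adjusted p = 0.0754 and 0.0748). Of 6 blood cell genes listed, such as haemoglobin chains, 3 had a matching ID, and none of these passed the filter.

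Of 11 endothelial genes only EGFL7 was lower (-0.47 ± 0.12, adjusted p = 0.0199), and it was not called without animal 2, 3 or 4. Of 9 pericyte and smooth muscle genes 6 were lower (median -0.60). MYLK was at 48.2, 38.9, 25.2, 61.0 and 49.9 CPM in hippocampus of animals 1 to 5 and at 202, 125, 152, 114 and 157 CPM in prefrontal cortex. MYLK, the kinase of smooth muscle contraction, was at least doubled in prefrontal cortex of each animal except animal 4 (61.0 against 114 CPM; -1.77 ± 0.21, adjusted p = 0.000454). RGS5, a pericyte gene (-1.09 ± 0.13), ACTA2 (-0.87 ± 0.11), ABCC9 (-0.60 ± 0.15), TAGLN (-0.57 ± 0.14) and MYH11 (-0.79 ± 0.16) were lower as well. Of 14 fibroblast and matrix genes 5 were lower and 2 higher, including FN1 (-0.46 ± 0.08), CEMIP (-0.75 ± 0.11) and, higher, SLC47A1 (1.17 ± 0.14). Without each of animals 1, 2 and 4, 2 of these 14 were lower, and without animal 4, 4 were higher.

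Genes of the ventricular lining that were called were all higher in hippocampus. Of 7 choroid plexus genes 4 were higher (median 1.81): PRLR, the ion channel TRPM3 (1.81 ± 0.12, adjusted p = 3.14e-05), the anti-ageing hormone gene KL (2.31 ± 0.49) and ENPP2 (1.46 ± 0.33). KL was at 57.5, 23.1, 16.0, 52.1 and 164 CPM in hippocampus of animals 1 to 5 and at 8.67, 8.69, 11.1, 10.9 and 6.75 CPM in prefrontal cortex. KL followed PRLR across animals, low in animals 2 and 3 and highest in animal 5. Of 12 genes of ependyma and motile cilia 7 were higher and none lower (median 1.00), among them the dynein chains DNAH9 (2.75 ± 0.27) and DNAH11 (3.05 ± 0.36), HYDIN (2.86 ± 0.23) and FOXJ1 (2.98 ± 0.56), the factor that switches on motile cilia. Without animal 5 these lists had 4 of 7 and 6 of 12 higher, with medians of 1.42 and 0.82.

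Of 11 genes of the neurogenic niche and of immature neurons 3 were higher and 2 lower (median 0.14). NEUROG2 was at 1.76, 1.77, 1.73, 1.93 and 1.67 CPM in hippocampus of animals 1 to 5 and at 0, 0, 0.0922, 0 and 0.105 CPM in prefrontal cortex. NEUROG2, a proneural factor of intermediate progenitors, had 92 counts in all in hippocampus and 2 in prefrontal cortex, a ratio of 46.6 (95% exact interval 12.5 to 390, counting error only). NEUROD1 and NES (0.47 ± 0.15), an intermediate filament of progenitors, were higher. STMN1, a microtubule regulator of growing neurons (-1.36 ± 0.09), and DCX, the marker of immature neurons (-0.65 ± 0.16, adjusted p = 0.0158), were lower. When animal 1, 2 or 3 was left out 1 of the 11 was lower, and 2 were higher when animal 1, 3, 4 or 5 was left out. DCX was at 14.1 to 22.2 CPM in hippocampus and 20.7 to 35.8 CPM in prefrontal cortex. Among 11 genes of the cell cycle CCNB1 was higher (0.40 ± 0.10) and CCND1 lower (-0.63 ± 0.10), and CCNB1 was not called without animal 1 or 2. The cell cycle shares, 1 of 11 each way, were no larger than the 13.8% higher and 13.4% lower of all genes tested. Those of the neurogenic niche list, 3 and 2 of 11, were larger with all 5 pairs.

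**Figure D3:**
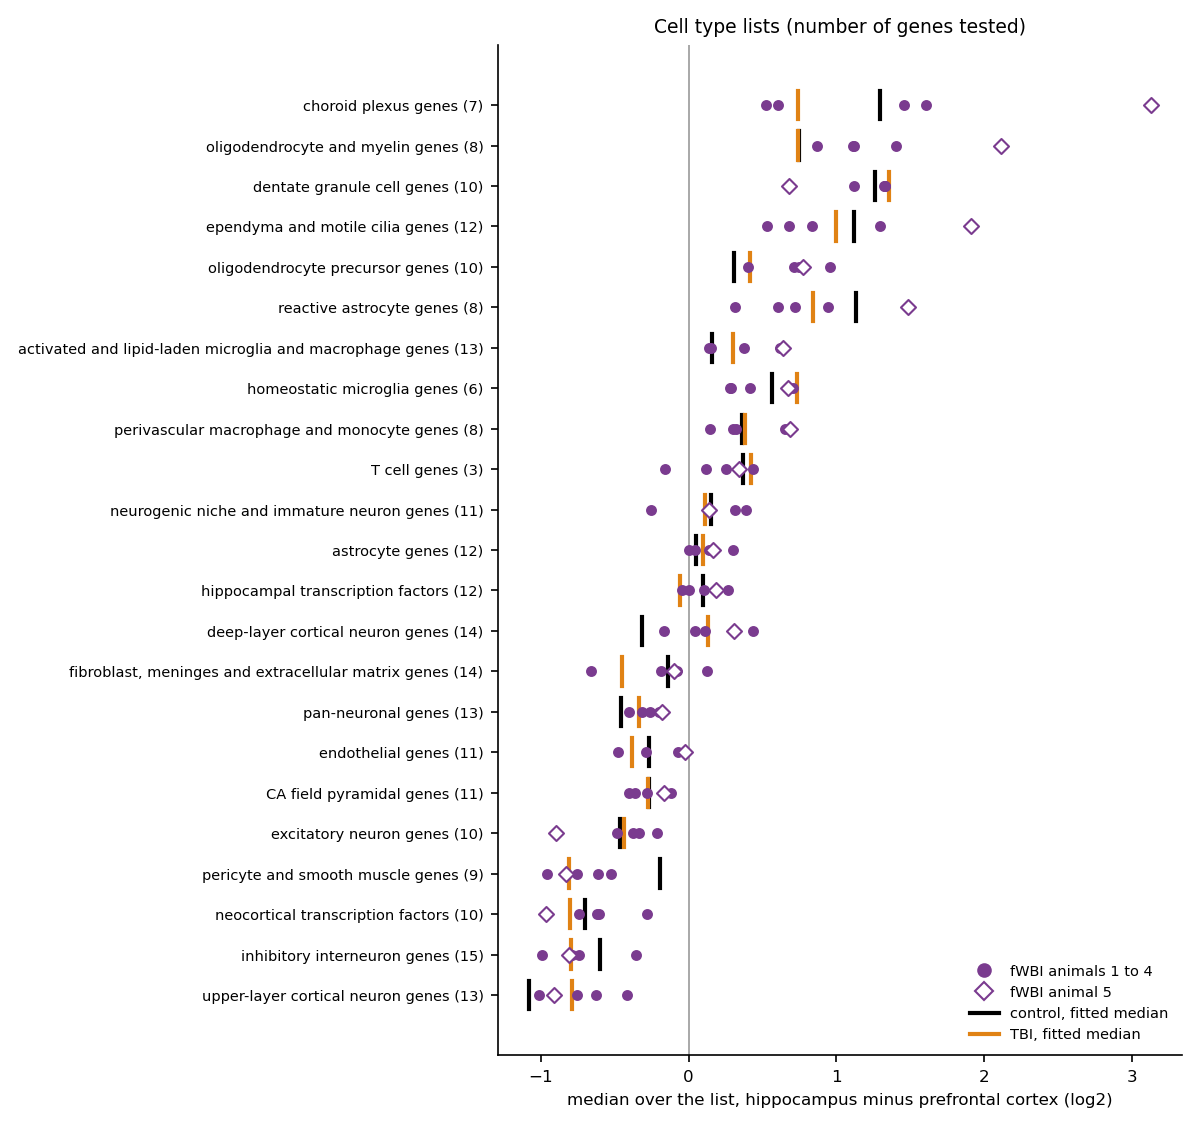
Median over each cell type list of the log2 difference between hippocampus and prefrontal cortex, for each fWBI animal (purple; the open diamond is animal 5) and as fitted in controls (black bar) and TBI animals (orange bar); numbers of genes tested are in brackets. The 5 fWBI animals lay above 0 for choroid plexus, myelin, dentate granule and ependymal genes and below 0 for upper-layer, interneuron and pericyte genes. They also lay on 1 side of 0 for other lists, such as oligodendrocyte precursor and astrocyte genes, above, and pan-neuronal and endothelial genes, below.

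Transmitter receptors differed by subunit. Of 17 ionotropic glutamate receptor subunits 2 were higher and 5 lower, against 13.8% and 13.4% of all genes tested. GRIA1 was at 806, 871, 1109, 883 and 598 CPM in hippocampus of animals 1 to 5 and at 259.5, 265, 299.7, 193 and 269 CPM in prefrontal cortex. GRIA1, a subunit of AMPA receptors, was about 3 times higher in hippocampus (1.72 ± 0.14, adjusted p = 7.65e-05), whereas GRIA4 was lower (-1.81 ± 0.12, adjusted p = 3.34e-05), at 40.1 to 71.7 against 163 to 208 CPM. GRIK4 was higher, and GRIK1 (-0.58 ± 0.14), GRIK3 (-1.27 ± 0.16) and GRIN2D (-0.98 ± 0.28) were lower. Without animal 5 the counts were 5 higher and 4 lower, and 3 were lower without each of animals 1, 2 and 3. All 4 metabotropic receptors that differed, of 7, were lower: GRM2 (-1.19 ± 0.20), GRM3 (-0.78 ± 0.11), GRM7 (-0.36 ± 0.10) and GRM8 (-1.68 ± 0.14).

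Among 14 GABA receptor subunits 3 were higher and 6 lower. GABRA5 was at 139, 193, 218, 198 and 136 CPM in hippocampus of animals 1 to 5 and at 50.7, 67.9, 73.7, 67.3 and 66.4 CPM in prefrontal cortex. GABRA5, the subunit of extrasynaptic receptors typical of hippocampal pyramidal cells, was higher (1.43 ± 0.10, adjusted p = 3.22e-05), with the less common subunits GABRE (0.74 ± 0.24) and GABRG1 (1.00 ± 0.16). The lower ones included GABRB2 (-0.97 ± 0.14), a subunit of synaptic receptors, GABRA4 (-1.12 ± 0.08) and GABRD (-1.26 ± 0.18), which form extrasynaptic receptors, and GABBR2 (-0.65 ± 0.16), of the metabotropic receptor.

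Of 16 receptors for serotonin, dopamine, noradrenaline and acetylcholine 5 were higher and 5 lower. HTR2A was at 25.3, 15.6, 16.6, 21.8 and 16.5 CPM in hippocampus of animals 1 to 5 and at 91.6, 87.7, 96.7, 79.3 and 84.6 CPM in prefrontal cortex. HTR2A, the cortical receptor on which psychedelics act, was lower (-2.21 ± 0.13, adjusted p = 1.94e-05), and HTR1A, an inhibitory receptor, was higher at 16.6 to 22.0 against 8.13 to 9.59 CPM (1.11 ± 0.10, adjusted p = 0.000142). HTR2C, HTR4 (0.73 ± 0.16) and ADRA1A (0.41 ± 0.13) were higher, and HTR3A (-1.13 ± 0.24), CHRM3 (-1.09 ± 0.14), DRD1 (-0.92 ± 0.20) and DRD5 (-1.96 ± 0.44) were lower. The number higher was 3 without animal 1 and 2 without animal 2. In hippocampus the 16 genes summed to 487 CPM in animal 5 and to 266 to 354 CPM in the others. The choroid plexus list was also highest in animal 5, and whether choroid plexus added to HTR2C was not tested.

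Neuropeptides and their receptors included 7 higher and 9 lower genes of 22. The receptor NPY2R (2.76 ± 0.24, adjusted p = 0.000105), dynorphin (PDYN, 0.81 ± 0.26), GRP (2.23 ± 0.30), NTSR2 (0.54 ± 0.13), CARTPT, NPY and NTS were higher. CRH (-1.46 ± 0.40), its receptor CRHR1 (-1.13 ± 0.14), SSTR3 (-1.12 ± 0.20), CCKBR (-1.83 ± 0.16) and VIPR1 (-1.50 ± 0.19) were lower with the interneuron peptides SST, CCK, VIP and TAC3. Both neurotensin and its receptor NTSR2, an astrocytic receptor, were thus on the hippocampal side, while CRH and CRHR1 were both on the cortical side.

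Voltage-gated potassium channels were lower in 14 of 21 and higher in 1, KCNS3 (0.56 ± 0.11), with a median of -0.92. KCNS1 was at 2.55, 1.18, 1.96, 3.55 and 1.11 CPM in hippocampus of animals 1 to 5 and at 76.6, 33.5, 57.5, 41.7 and 55.9 CPM in prefrontal cortex. KCNS1, a silent subunit that modifies other channels, had the largest difference (-4.65 ± 0.25, adjusted p = 1.25e-05). KCNV1, another silent subunit, and KCNH7 (-2.21 ± 0.15), of the ERG family, followed. Subunits of the fast-spiking type were lower, KCNC1 (-1.18 ± 0.12) and KCNC2 (-0.92 ± 0.08), as was KCNQ5 (-1.05 ± 0.23). Leaving out each animal in turn gave 13 or 14 lower and 1 higher.

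Molecules of axon guidance and adhesion were divided. Of 39 guidance ligands and receptors 13 were higher and 11 lower (median 0.12). SEMA3C, a secreted semaphorin, was lower (-2.02 ± 0.10, adjusted p = 9.5e-06), at 32.0 to 68.7 against 117 to 223 CPM, and so was the ephrin receptor EPHB6 (-1.57 ± 0.08). EPHA6 (1.45 ± 0.12), EPHA7 (1.44 ± 0.14), EPHA5 (0.63 ± 0.18), the neuropilins NRP1 (1.98 ± 0.17) and NRP2 (1.80 ± 0.21) and the netrin receptor DCC (0.72 ± 0.16) were higher. Of 15 cadherins 5 were lower, including CDH22 (-1.56 ± 0.16) and CDH18 (-1.23 ± 0.11), and 3 higher. Of 9 genes of perineuronal nets 3 were higher, VCAN, BCAN (0.87 ± 0.09) and PTPRZ1 (0.73 ± 0.13), and ACAN, the aggrecan core of the nets, was lower (-1.55 ± 0.43, adjusted p = 0.0281). None of the 9 was lower when animal 1, 2 or 3 was left out, and 5 were higher without animal 5.

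Hormone and morphogen genes differed by member. The glucocorticoid receptor NR3C1 was lower in hippocampus, at 67.8, 59.6, 57.6, 64.4 and 90.0 CPM against 158, 148, 143, 155 and 170.1 CPM (-1.20 ± 0.08, adjusted p = 4e-05), and the mineralocorticoid receptor NR3C2 was higher, as given above. The thyroid hormone receptors also went opposite ways, THRB lower (-1.41 ± 0.14) and THRA higher (0.62 ± 0.08). Of 16 genes of the retinoic acid pathway 5 were lower and 2 higher, against 13.4% and 13.8% of all genes tested. RARB, a receptor (-1.70 ± 0.10), and CYP26B1, which degrades the ligand (-2.36 ± 0.30), were lower and RXRG was higher (1.50 ± 0.21). Of 15 Wnt pathway genes 4 were higher and 3 lower, with the agonist RSPO3 (1.84 ± 0.22), the secreted inhibitor FRZB (0.72 ± 0.10) and DKK3 (0.82 ± 0.08) among the higher ones. Without animal 2 the number lower was 3 in the retinoic acid list and 1 in the Wnt list, and 1 retinoic acid gene was higher without animal 2 or 3.

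Immediate early genes, which neurons switch on with activity, were lower in 5 of 8 and higher in 1, NR4A3 (1.29 ± 0.28; median -0.72). NR4A1 was at 3.70, 5.31, 2.42, 4.67 and 4.91 CPM in hippocampus of animals 1 to 5 and at 17.0, 21.4, 24.1, 16.7 and 20.9 CPM in prefrontal cortex. NR4A1 (-2.24 ± 0.20, adjusted p = 0.000113), NPAS4 (-2.32 ± 0.24), EGR2 (-2.29 ± 0.25), ARC (-0.67 ± 0.13) and JUNB (-0.77 ± 0.14) each had all 5 hippocampus libraries below all 5 prefrontal cortex libraries. Over all genes tested that held for 8.81%.

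Of 4 genes of MHC class II presentation 3 were higher, MAMU-DMB (1.40 ± 0.15), CD74 (0.89 ± 0.16) and MAMU-DRB1 (0.62 ± 0.15), although reads of MHC genes may be shared among near-identical copies. MAMU-DRB1 was not called without animal 1 or 3. Of 11 complement genes 4 were higher, including C3 (1.17 ± 0.11), and 2 lower, the proteases C1S (-0.88 ± 0.12) and C1R (-1.01 ± 0.14). Of 13 interferon-stimulated genes IFI6 (0.97 ± 0.12) and IFIT3 (0.52 ± 0.11) were higher, a share near the 13.8% of all genes tested. Of 8 p53 target and senescence genes only SESN1 differed, lower (-0.48 ± 0.08), a share near the 13.4% lower of all genes tested.

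Cholesterol synthesis genes were higher in 8 of 12, by modest amounts (median 0.43). DHCR7 was at 12.3, 12.6, 15.9, 13.3 and 11.0 CPM in hippocampus of animals 1 to 5 and at 8.29, 6.73, 8.02, 5.25 and 7.06 CPM in prefrontal cortex. DHCR7, a late enzyme of the pathway (0.88 ± 0.14, adjusted p = 0.00214), had the lowest hippocampus value, in animal 5, above the highest prefrontal cortex value. NSDHL (0.79 ± 0.13), SQLE (0.38 ± 0.08) and HMGCS1 (0.51 ± 0.10) were also among the 8. In 7 of the 12 genes hippocampus lay wholly above prefrontal cortex, against 8.12% of all genes tested. Of 19 nuclear-encoded genes of the respiratory chain none was called (median 0.01), with NDUFA4 at 0.17 ± 0.13 and NDUFA1 at 0.02 ± 0.18. Without animal 5, 3 of the 19 were lower, and without animal 4, 1 was higher.

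**Figure D4:**
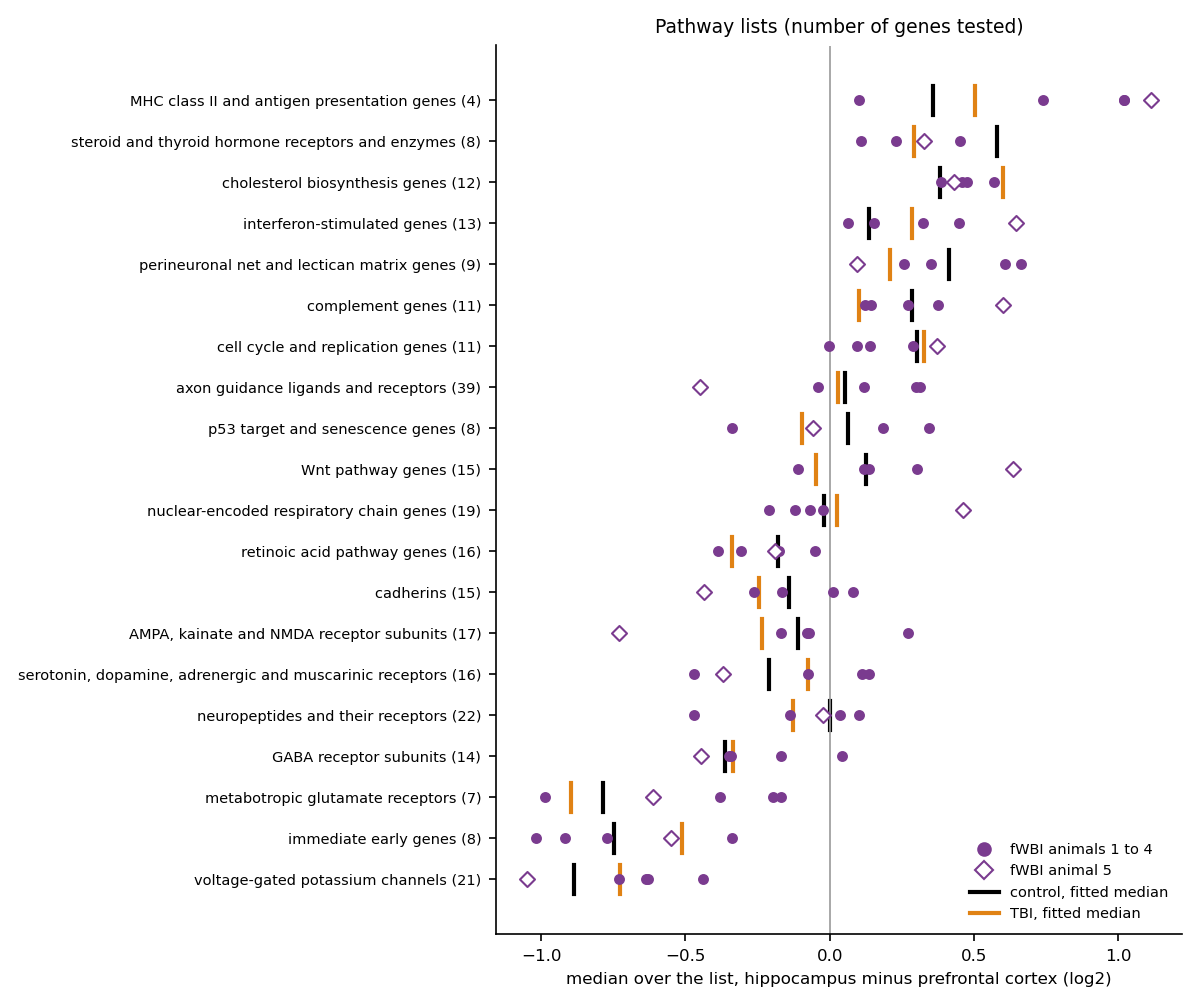
Median over each pathway list of the log2 difference between hippocampus and prefrontal cortex, for each fWBI animal (purple; the open diamond is animal 5) and as fitted in controls (black bar) and TBI animals (orange bar); numbers of genes tested are in brackets. Potassium channels and immediate early genes lay below 0 and cholesterol synthesis genes above 0 in all 5 fWBI animals, while respiratory chain genes spread from -0.21 to 0.46. Other lists lay on 1 side of 0 in all 5 animals as well. These were metabotropic glutamate receptors, below, and the MHC class II, complement, interferon, steroid and thyroid, and perineuronal net lists, above.

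The same regional comparison was made in the animals without fWBI. In controls 3396 of 14872 genes tested differed (22.8%), 1674 higher (11.3%) and 1722 lower (11.6%), and in TBI animals 6348 of 15095 (42.1%), 3115 higher (20.6%) and 3233 lower (21.4%). Called genes with a difference of more than 1 on the log2 scale were closer in number, 1161 after fWBI, 1220 in controls and 1307 in TBI animals. No library is shared between these comparisons. Of the genes tested in fWBI and control animals, 2724 were called in both, 67.2% of the fWBI calls and 80.8% of the control calls, and all 2724 had the same sign. With TBI animals the shared number was 3576, 87.2% of the fWBI calls and 56.8% of the TBI calls, all of the same sign. Across genes the fold changes had a Pearson correlation of 0.93 with controls and 0.92 with TBI animals, over 14763 and 14947 genes, which are not independent.

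The lists can be set side by side in the 3 groups. The median for dentate granule genes was 1.09 after fWBI, 1.26 in controls and 1.36 in TBI animals, with 9 of 10 higher in each. For interneuron genes it was -0.64, -0.60 and -0.80, and for potassium channels -0.92, -0.89 and -0.73. FREM3 had a difference of -6.58 ± 0.41 after fWBI, -6.58 in controls and -6.71 in TBI animals. The myelin list had a median of 1.35 after fWBI against 0.75 and 0.74, with 8, 5 and 7 of 8 higher. None of its genes passed the test of the difference between groups, where 3 of 8 had an unadjusted p under 0.05 against controls and 3 against TBI animals. The myelin median after fWBI was 1.17 without animal 5. Pericyte and smooth muscle genes had medians of -0.60, -0.20 and -0.81, with 3 of 9 at an unadjusted p under 0.05 against controls and 0 against TBI animals. Other lists held such genes too. Oligodendrocyte precursor genes had medians of 0.94, 0.31 and 0.42, with 3 of 10 at such a p against each group. Reactive astrocyte genes had medians of 0.80, 1.13 and 0.84, thus smaller after fWBI, with 3 of 8 against controls and 0 against TBI animals. Over all 16077 genes of that test, 497 had such a p against controls and 659 against TBI animals. Both numbers are below the share of 0.05 that this cut passes when no gene differs.

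Whether the regional difference itself was other after fWBI was tested gene by gene over 30 libraries of the 3 groups, with animal as a block. Against controls 1 of 16077 genes was called (0.00622%), with a smaller difference after fWBI, 0 (0%) with a larger one, and 497 had an unadjusted p under 0.05. Against TBI animals 0 genes (0%) were called by edgeR's quasi-likelihood test, with 659 at an unadjusted p under 0.05. As given above, 497 and 659 are both below a share of 0.05 of the genes tested. DESeq2's Wald test called 5 and 1.

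The gene called was IQGAP2, a scaffold of the actin skeleton. After fWBI it was at 52.4, 48.1, 52.2, 39.0 and 51.0 CPM in hippocampus and at 12.0, 21.1, 18.1, 16.4 and 22.2 CPM in prefrontal cortex of animals 1 to 5. In controls it was at 38.4, 50.4, 45.3, 49.3 and 69.0 CPM in hippocampus and at 5.22, 7.07, 5.55, 8.68 and 10.1 CPM in prefrontal cortex. The hippocampus ranges of the groups overlapped, whereas every fWBI prefrontal cortex library lay above every control and TBI one, the latter at 5.60 to 8.66 CPM. IQGAP2 was higher in hippocampus in each group, by 1.45 ± 0.14 after fWBI, 2.80 ± 0.12 in controls and 2.67 ± 0.12 in TBI animals. The change of the difference was -1.35 ± 0.19 against controls (adjusted p = 0.031) and -1.23 ± 0.19 against TBI animals (adjusted p = 0.0906). All 5 fWBI pairs lay below all 5 control pairs, 1.18 to 2.11 against 2.48 to 2.98 log2 CPM. The call against controls was lost in 8 of 10 fits that left out 1 animal of either group, without each of fWBI animals 2 to 5 and control animals 1, 2, 3 and 5 (adjusted p up to 0.184, estimates of -1.51 to -1.28). In white matter, which is outside this comparison, IQGAP2 was at 64.7 to 100.3 CPM after fWBI and at 3.25 to 5.22 CPM in controls, scaled by total count.

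The next named genes by p are given as values only, since none passed the threshold. MAMU-DMB, of the MHC class II loading complex, was at 6.12 to 10.5 CPM in prefrontal cortex after fWBI and at 1.34 to 2.46 CPM in controls, and at 17.2 to 29.4 and 7.52 to 22.8 CPM in hippocampus (change -1.49 ± 0.29, adjusted p = 0.28). SELPLG was at 7.24 to 15.6 CPM in hippocampus after fWBI against 20.7 to 31.4 CPM in controls, and at 2.51 to 4.05 against 13.3 to 19.6 CPM in prefrontal cortex (0.95 ± 0.20, adjusted p = 0.309). In both regions the fWBI libraries lay below all control libraries for SELPLG. C1QL1, a secreted synaptic organiser, was at 0.818 to 2.95 CPM in hippocampus after fWBI and 4.99 to 6.76 CPM in controls (-1.40 ± 0.28, adjusted p = 0.309). In prefrontal cortex C1QL1 was at 4.56 to 8.16 CPM after fWBI and 7.33 to 9.49 CPM in controls. WDR86 was at 4.54 to 7.72 CPM in prefrontal cortex after fWBI and 4.71 to 14.5 CPM in controls. In hippocampus WDR86 was at 2.27 to 4.89 and 1.02 to 2.73 CPM (change 1.57 ± 0.29, adjusted p = 0.251). Among genes with a symbol, the 5 smallest p-values against TBI animals belonged to IQGAP2, GSTA2, MAMU-DMB, SELPLG and C11H12orf56, the last at 1.35 ± 0.33 (adjusted p = 1). GSTA2, a glutathione transferase, was at 0.711 to 33.4 CPM in fWBI hippocampus, highest in animal 5, and at 0.288 to 2.15 CPM in TBI hippocampus (4.78 ± 1.07, adjusted p = 1). In control hippocampus GSTA2 was at 34.7 CPM in animal 2 and at 0 to 4.17 CPM in the others.

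**Figure D5:**
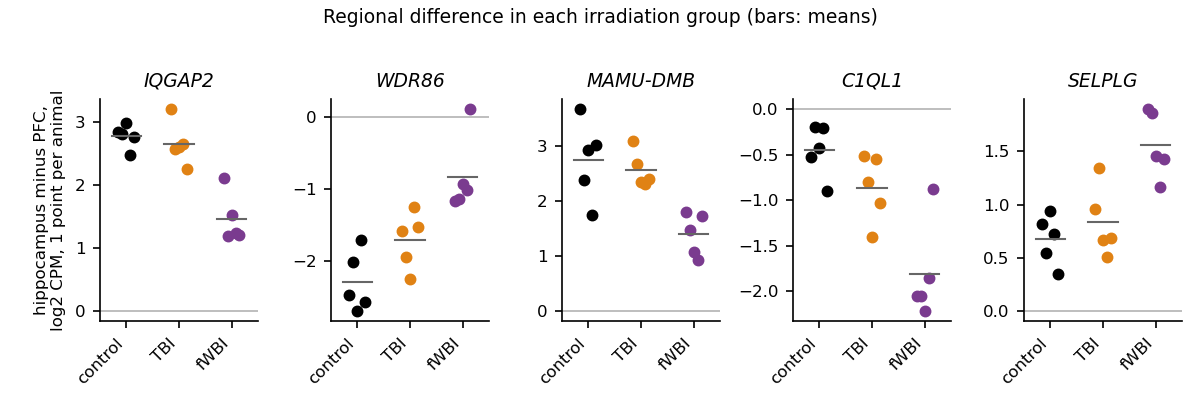
Difference between hippocampus and prefrontal cortex in log2 CPM, 1 point per animal and a bar at the group mean, for the 5 genes with a symbol that had the smallest p of the change against controls. For IQGAP2 the fWBI animals lie at 1.18 to 2.11 and the control animals at 2.48 to 2.98; the other 4 genes did not pass the threshold.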

How the data were processed

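Total RNA from 3 brain regions of 15 rhesus macaques was sequenced, 1 library per animal and region. The authors deposited raw read counts per gene for 45 libraries (6625435 to 12541507 counts). Among the tools in the submitters' processing notes are STAR for alignment and featureCounts, with no version. Whether counting used strand is unknown here, so a gene and its antisense partner may share reads; with no genome build named, no coordinates are printed. Symbols could be matched for 15769 of 30246 gene IDs, and the unmatched IDs took 16.6 to 23.8% of counts in the 10 libraries.

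Counts of the 10 libraries were tested with edgeR 4.0.16 (R 4.3.3): default filter on low counts, TMM scaling, quasi-likelihood test, animal as a block, two-sided, Benjamini-Hochberg adjustment, threshold 0.05. The labels tie both regions to the same animal. Libraries of each of fWBI animals 1 to 4 deviated together from their region means, with r = 0.35 to 0.53 across genes. In animal 5 r was 0.07, and its hippocampus library matched the prefrontal cortex library of another animal better than its own. The same held for control animals 1 (r = 0.06) and 4 (r = 0.08). The block was kept because the labels name the animal. The animals are separate replicates. No libraries were duplicates (smallest chi-square per gene 7.90).

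The change of the regional difference was tested on 30 libraries. Genes named are the 15 largest higher and 15 largest lower differences (mean of at least 1 CPM, same sign in 5 animals), up to 3 called members of each of 44 lists by p (6 for neuronal layer and field lists), and the 5 smallest p of each test between groups; other list members were named after their values were seen, mostly to complete a count. Some genes that the rule selects are not reported here; counts over lists include them. Members and lists were chosen with earlier results of these data known. Of 679 listed genes, 491 were tested and 150 had no matching ID. Log2 CPM used a prior count of 2. Both tests were tested on simulated data, where genes left unchanged made up more than the nominal share of calls in the comparison of regions. Alternatives were DESeq2 (1.42.0) and its size factors, limma-voom (limma 3.58.1), other filters, a fold minimum, other sets of libraries, no block, and leaving out each animal.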

Additional observations from a re-analysis of the deposited data

Results flagged for a closer look

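Across 297 groups of 5 values examined (library totals, list sums and medians, and pairwise differences of named genes), 23 held a sample far from the other 4. For independent, normally distributed values the cut used is passed in about 1 in 20. These groups share libraries and genes, and the named genes were chosen from the same data. That rate therefore cannot show an excess here. For named genes the value is the difference between hippocampus and prefrontal cortex of 1 animal in log2 CPM, and 17 of 146 genes held such a pair, 8 of them in animal 5, 4 in animal 1, 1 in animal 2, 2 in animal 3 and 2 in animal 4.

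In animal 5 these were RBFOX3 (-2.06), TBR1 (-2.42) and GRM2 (-2.22), all farther from 0 than in the other animals. C1QL3 (0.46), PLEKHA2 (0.68), GABRA5 (1.04), BCAN (0.57) and NR3C1 (-0.92) were closer to 0 than in the other animals. The median of the respiratory chain genes was 0.46 in animal 5 and -0.21 to -0.02 in the others, and the cadherins summed to 812 CPM in its hippocampus against 961 to 995 CPM. For the genes with the smallest p between groups, animal 5 had a difference of 0.10 for WDR86 and -0.88 for C1QL1.

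In animal 1 the differences of FAM216B (4.42), TAC3 (-2.34), AQP4 (0.53) and IFIT3 (0.095) stood apart. In animal 2 this held for LAMP5 (1.31), in animal 3 for KCNH7 (-2.96) and NR4A1 (-3.22), and in animal 4 for CSF1R (0.27) and DKK3 (0.57). The perivascular macrophage and monocyte genes summed to 314 CPM in prefrontal cortex of animal 2 and to 236 to 253 CPM in the others. The prefrontal cortex library of animal 5 had a total of 9270326 counts, below the other 4.

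The regional difference of IQGAP2 was smaller after fWBI than in controls by a test of the difference itself, by -1.35 on the log2 scale. The call held in only 2 of 10 fits that left out 1 animal. It was lost without the animal block and with only the 2 groups compared.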

How the results depend on the processing

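The count of 4149 genes stayed within 1.5 times of its value under DESeq2's size factors, DESeq2's test, limma-voom, other low-count filters, other sets of libraries and without the animal block (3436 genes). It was 356 with a log2 fold minimum of 1 (glmTreat), which by construction asks for larger differences, and 2638 to 4736 when 1 animal was left out. Of 151 named genes, 77 lost their call with that minimum, CD163, MAMU-DRB1 and CCNB1 without the replicate block, CCNB1 with DESeq2's test, and MSR1, EGFL7 and CDH7 with the 15 fWBI libraries of 3 regions (adjusted p = 0.0766, 0.0631 and 0.0598). NDUFA1, not called in any fit, changed sign without the block (-0.0748), with the 15 fWBI libraries of 3 regions (-0.0097) and without animal 5 (-0.22), over a range of -0.22 to 0.222 when each animal was left out. Among list members named beside a count, NES, GRIN2D, GABRE and PDYN were not called without animal 5 (adjusted p = 0.0656, 0.0699, 0.063 and 0.0634). The control count was 2275 to 4016 and the TBI count 4982 to 6389 with 1 animal left out.

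The change of the regional difference against controls gave 5 genes with DESeq2's test (IQGAP2, C1QL1, WDR86, MAMU-DMB and an ID without a symbol), 2 without a low-count filter, 0 without the replicate block, 0 with only the 2 groups compared, and 0 to 2 with 1 animal left out. Against TBI it gave 1 gene, IQGAP2, with DESeq2's test and 1, IQGAP2, without a low-count filter, and 0 to 1 with 1 animal left out. The causes were not tested.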

Other observations

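NDUFA1, a subunit of respiratory complex I, was not called between regions and split the animals in the same way in each region. Scaled by total count it was at 1.33 and 0.95 CPM in hippocampus of fWBI animals 2 and 3, and at 37.9 to 77.9 CPM in animals 1, 4 and 5. In prefrontal cortex the same 2 animals were at 1.88 and 1.13 CPM, and the others at 22.3 to 95.5 CPM. White matter of these animals held 0.43 and 0.21 CPM against 22.1 CPM or more. Among TBI animals, animals 2 and 3 were at 0.87 and 1.77 CPM in hippocampus and the other 3 at 36.3 to 41.0 CPM, while no control library lay below 17.3 CPM in any region. The pattern was noticed after the values were seen, and no test was made.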
